A study of Mus musculus with 768 samples.

Results

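Sox17, Sox18 and Sox7 are the members of the SoxF group of transcription factors, and are described here across cell types and across treated and control mice in sorted cells of the mouse dentate gyrus. They are 3 of the 32679 genes in the deposited count table, taken by symbol, and their levels are each well's counts scaled to the same total (CPM, counts per 1000000) over wells with at least 50000 counts and at least 1000 genes. They were picked because earlier results of these data showed their levels by cell type and by treatment, so those levels are given as values without a test. The study sorted single cells that carry Nestin:GFP, a reporter driven by regulatory sequence of Nes, from the dentate gyrus of male Nestin:GFP mice aged 2 months. The animals had been given 1 injection a week over 5 weeks, each of 150 pmol oligonucleotide in 3 µl with lipofectamine 2000. The oligonucleotide was a mimic of miR-132 in the mimic group and a negative control in the control group. Control mice were numbered 1, 3, 5 and 7 and mimic mice 2, 4, 6 and 8. Cells of mice 1, 2, 3 and 4 were taken on 17 April 2018, and those of the other 4 mice on 19 April; each date thus holds 2 control and 2 mimic animals. The series text calls the tissue "AD" dentate gyrus without saying what that means for these animals, and the labels give no disease genotype.

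SoxF proteins bind DNA through an HMG box and are known as regulators of blood and lymphatic vessel formation. In brain vessels Sox17 acts downstream of Wnt/β-catenin signalling and upstream of Notch in arterial endothelium. Sox18 induces Prox1 in lymphatic precursors and its mutation gives the ragged mouse, and Sox7 shares roles with both in vessel development and can stand in for them in part.

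The injected oligonucleotide mimics miR-132, so the mature miR-132-3p is shown with its seed, bases 2 to 8, in capitals, followed by the place in Sox17 that matches it. The microRNA comes from RefSeq and lies at chr11:75173723-75173744 on the plus strand of GRCm38.p6. The Sox17 line gives the end of the longest annotated Sox17 3′ UTR (GENCODE M21, the mm10 build of the files, minus strand of chromosome 1) with the match in capitals, read as DNA.

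mmu-miR-132-3p: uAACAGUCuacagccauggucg

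Sox17 3′ UTR end: tttgtgttgtGACTGTTA

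A script searched the longest 3′ UTR of each gene, sense strand alone, for 3 forms of the match: GACTGTTA (8 bases), GACTGTT (opposite the seed) and ACTGTTA (opposite bases 2 to 7 with an A). The 3 forms overlap, and the 2 shorter ones are parts of the first. Sox17 (785 UTR bases) held the 8-base form once, starting 778 bases from the stop codon, which makes it the last 8 bases of the transcript. Sox18 (367 UTR bases) and Sox7 (2073 UTR bases) held none of the 3 forms. Over the longest UTRs of 21020 genes, with a median length of 961 bases, 2.35% held the 8-base form, 10.7% GACTGTT and 10.9% ACTGTTA. These matches are a description of letters and not a measured interaction.

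Sox17 lies on chromosome 1 at 4490931 to 4497354, Sox18 on chromosome 2 at 181669836 to 181671640 (both minus strand) and Sox7 on chromosome 14 at 63943673 to 63950732 (plus strand). All 3 are protein-coding, with merged exons of 4772, 1620 and 3299 bases. Sox17 overlaps Gm37587, a processed transcript on the opposite strand, and because Smart-seq2 libraries do not mark strand, reads of the 2 cannot be told apart. Sox18 and Sox7 overlap no other annotated gene.

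Each well was a library of its own. Of 768 wells, 96 for each mouse, 675 passed both limits, which left 75 to 92 wells for a mouse. Median depth was 646537 counts, over a median of 2741 genes. Clusters built without the 3 SoxF genes and named by markers gave 296 oligodendrocyte-like, 107 endothelial-like, 96 astrocyte-like, 70 pericyte-like, 38 neuroblast-like, 14 smooth muscle-like, 16 fibroblast-like and 18 oligodendrocyte precursor-like wells. The remaining 20 wells stayed unnamed. In the endothelial-like wells all 12 endothelial markers averaged at least 50 CPM, led by the tight junction gene Cldn5 at 12671 CPM. Pericyte markers reached that level for 2 of 9 genes (Rgs5 highest, 411 CPM), oligodendrocyte markers for 1 of 10 (Mal, 472 CPM) and the haemoglobin genes for 3 of 3 (Hbb-bs, 1792 CPM). The fibroblast gene Dcn and the microglia gene Cx3cr1 were at 0 there. Among the unnamed wells were 16 with 10045 to 11362 genes, while no other well had more than 5015, although the labels say that 94 cells were sorted per mouse.

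The labels place each well in a mouse in 2 ways that disagree. Well names are listed in the sample descriptions, which is the assignment used here, and they are also sample titles. The same mouse is named by both for 96 of 768 wells, and the same treatment for 384. By the descriptions the 16 wells with very many genes fall 2 to each of the 8 mice, at 8 plate positions. By the titles they fall 4, 8 and 4 to mice 1, 2 and 6 and to none of the other 5 mice. Endothelial-like wells number 4 to 23 per mouse by the descriptions and 10 to 17 by the titles. Levels by cell type over wells do not depend on this assignment, but means and tests over mice and every comparison of mimic with control do. Values by titles are given for the SoxF differences and the vessel marks, and for other genes named with a fold change where the direction turned.

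All 3 SoxF genes were found almost entirely in endothelial-like wells. Sox18 had the highest level there, at 1058 CPM on average over the 107 wells, with a count in 90 of them (84.1%). Sox17 averaged 570 CPM with a count in 73 wells (68.2%), and Sox7 averaged 349 CPM with a count in 58 wells (54.2%). As means of the 8 mouse means these were 1020 ± 343 CPM for Sox18, 522 ± 246 for Sox17 and 373 ± 167 for Sox7 (SD, n = 8). Divided by exon length, so that genes can be compared, the mean levels were 653 CPM per kb for Sox18, 119 for Sox17 and 106 for Sox7. The Sox17 and Sox7 levels lie closer to each other than the spread of either over mice. After every well was thinned to 50000 counts the shares of endothelial-like wells with a count were 83.2%, 66.4% and 52.3% for Sox18, Sox17 and Sox7.

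**Figure D1:**
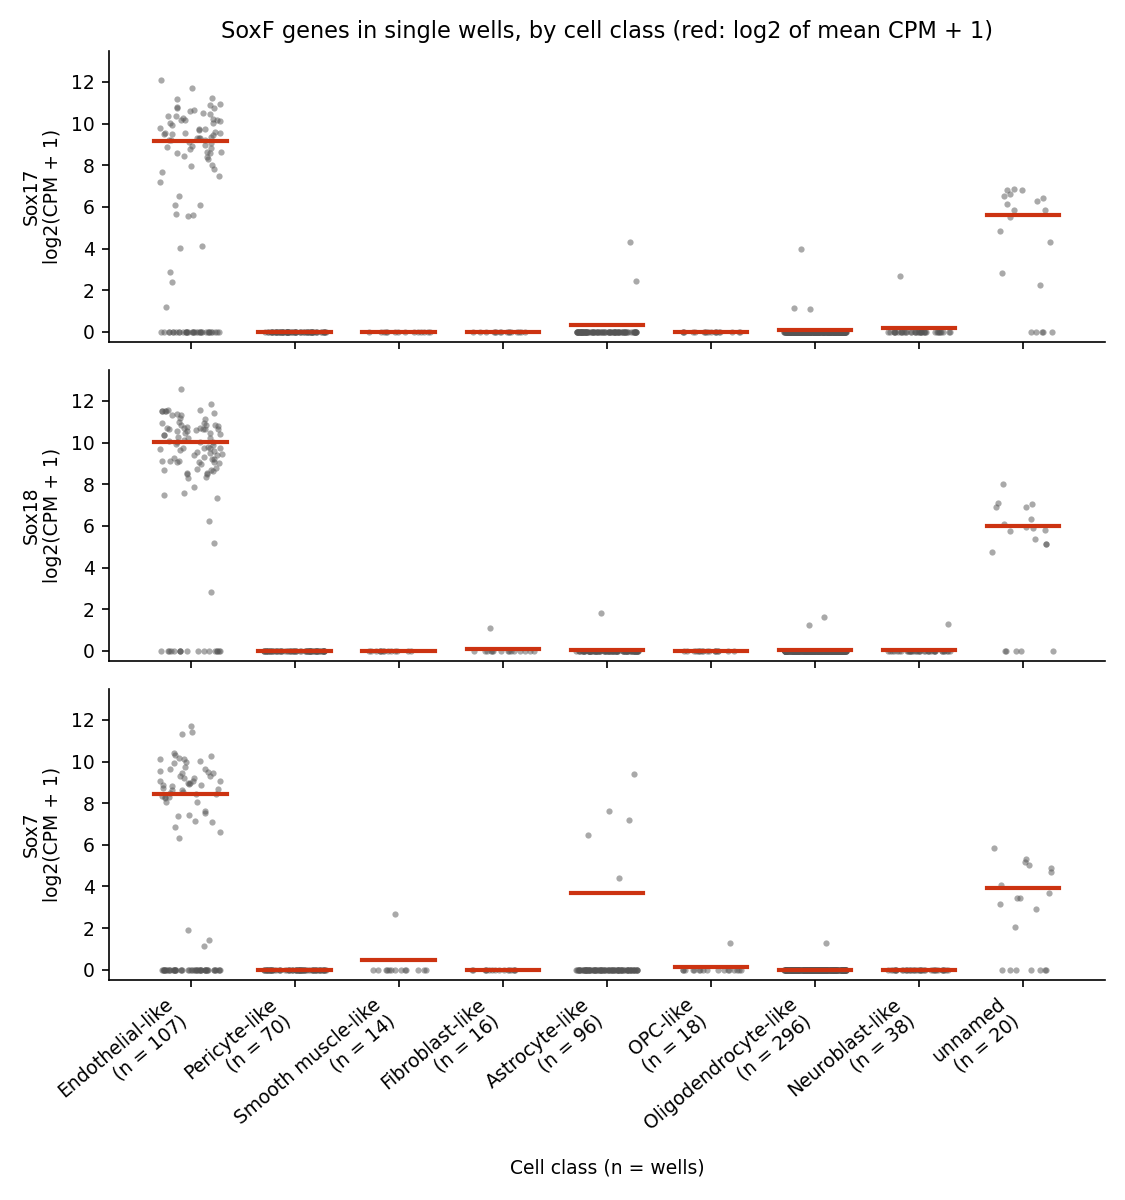
Level of Sox17, Sox18 and Sox7, log2(CPM + 1), in each of the 675 kept wells (points) by cell class, with the class mean CPM on the same scale (red lines). Endothelial-like wells hold nearly all high values. Of the 20 unnamed wells 15 have a Sox17 count, 15 a Sox18 count and 13 a Sox7 count, and 5 astrocyte-like wells carry Sox7 at 20 CPM or more.

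In the mural cells that lie on the same vessels, none of the 3 genes gave a count in any of the 70 pericyte-like wells, which allows a share of up to 4.29%. Among 14 smooth muscle-like wells Sox7 had a count in 1 (7.14%), at 5.42 CPM, and Sox17 and Sox18 in none. In the 548 named wells that were not endothelial-like, Sox17 had a count in 6 wells with a maximum of 19.0 CPM, and Sox18 in 5 wells with a maximum of 2.54 CPM. Oligodendrocyte-like wells, which should lack these genes, gave shares of 1.01% for Sox17, 0.676% for Sox18 and 0.338% for Sox7 at a median depth of 707555 counts, against 574174 in the endothelial-like wells.

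Sox7 had a further set of wells. It had a count in 8 of the 548 wells, and the 5 at 20 CPM or more were all astrocyte-like, at 680, 199, 144, 88.4 and 20.3 CPM. These wells came from 4 mice (1, 5, 6 and 8), carried no Cldn5 count, and held Pecam1 at 1.84 and 1.52 CPM in 2 wells of mouse 8 and at 0 in the others. They held the astrocyte gene Aldoc at 2303 to 17833 CPM. They make up 5 of 96 astrocyte-like wells (5.21%), and the share was the same after thinning. Whether these counts come from astrocytes was not tested beyond those marker values.

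In the unnamed wells Sox18 averaged 72.6 ± 60.1 CPM, Sox17 51.9 ± 30.7 and Sox7 16.2 ± 12.3 over mice (SD, n = 8). Sox17 and Sox18 thus lay between their endothelial-like levels and the levels of under 1 CPM in the named other classes. The Sox7 level in these wells overlapped that of the astrocyte-like wells, which was 17.3 ± 33.2 CPM (SD, n = 8).

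Among the other 17 Sox genes of a fixed list, Sox13 alone had its highest level in endothelial-like wells, at 242 CPM with a count in 44.9% of wells. Per kb that is 56.0 CPM, below the 106 CPM per kb of Sox7. The next of the list in endothelial-like wells were Sox9 at 10.2 CPM, Sox4 at 5.17, Sox3 at 0.448 and Sox1 at 0.428. The other members of the list peaked elsewhere, such as Sox11, a gene of young neurons, at 1014 CPM in neuroblast-like wells, and Sox10, the oligodendrocyte lineage regulator, at 473 CPM in oligodendrocyte precursor-like wells.

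Within endothelial-like wells the SoxF levels were spread widely, and wells tended to have either a clear level or no count. Sox17 reached 50 CPM or more in 65 wells and lay between 0 and 50 CPM in 8 more, with a median of 639 CPM over its 73 wells with a count and a maximum of 4446 CPM. For Sox18 88 wells reached 50 CPM and 2 lay below it, with a median of 1007 CPM over wells with a count and a maximum of 6132. Sox7 reached 50 CPM in 55 wells and lay below it in 3, with a median of 478 CPM over wells with a count and a maximum of 3376. The coefficient of variation over the 107 wells was 1.62 for Sox7, 1.32 for Sox17 and 0.964 for Sox18. Wells with and without a count had similar depth: the medians were 574174 and 572155 counts for Sox17, 577374 and 557331 for Sox18, and 562751 and 583513 for Sox7. Pearson's r of the level with the number of genes in a well was 0.36 for Sox18, 0.21 for Sox7 and 0.17 for Sox17 over the 107 wells, as a description.

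The 3 genes combined as follows in single wells. All 3 had a count in 37 of 107 wells (34.6%), where the product of the single shares corresponds to 33.3 wells. Sox17 and Sox18 without Sox7 were found in 27 wells, and Sox18 and Sox7 without Sox17 in 16. Sox18 was the only one of the 3 in 10 wells, Sox17 in 7 and Sox7 in 3. Sox17 and Sox7 without Sox18 were found in 2 wells, and 5 wells had none. Across the 107 wells, which share 8 animals and a range of depths, Pearson's r of log2(CPM + 1) was 0.25 between Sox18 and Sox7 and above 0 in each of the 6 mice with at least 8 such wells. It was 0.14 between Sox17 and Sox18, above 0 in 3 of these 6 mice, and -0.11 between Sox17 and Sox7, above 0 in 2. These are weak relations in sparse counts and are given as a description.

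**Figure D2:**
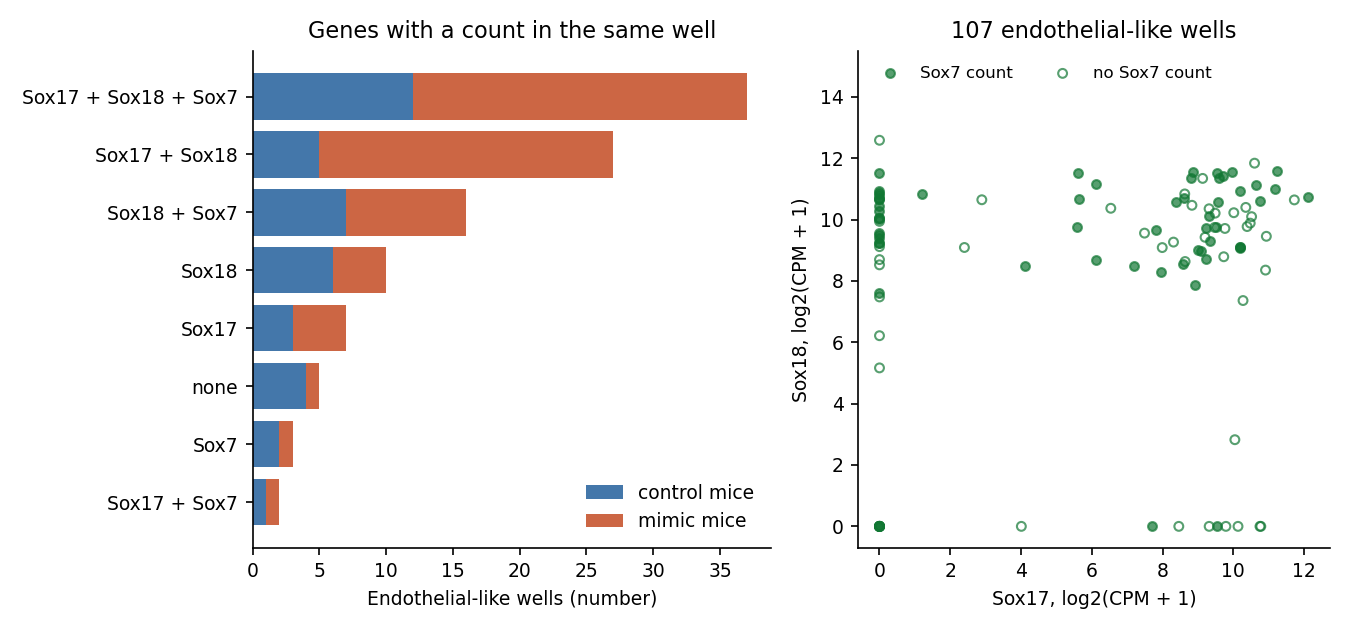
Left, number of the 107 endothelial-like wells with each combination of SoxF counts, split into wells of control and mimic mice; 37 wells hold all 3 genes and 5 hold none. Right, Sox18 against Sox17 in the same wells as log2(CPM + 1), with filled points for wells that also have a Sox7 count; points at 0 on an axis have no count of that gene.

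The genes whose pattern was most like each member were ranked by Pearson's r. Over 34 mouse-by-class units of at least 5 wells, the genes most like Sox18 were Stap2, Degs2, Abcb1a, Tmem252 and Xdh, and those most like Sox17 were Abcb1a, Tmem252, Stap2, Ctla2a and 4930578C19Rik. Abcb1a encodes the P-glycoprotein efflux pump of the blood-brain barrier and averaged 554 CPM in endothelial-like wells. For Sox7 the list was different, with Slc7a5 (a large neutral amino acid transporter, 293 CPM, r = 0.939), Trim30a, Slc40a1 (ferroportin, 695 CPM), Spock2 and Slc39a8. Such units share their cell class, so these values mainly order genes by how far they are limited to one class.

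Within the 107 endothelial-like wells alone the likeness was much lower. The highest r for Sox18 was with S1pr1, a sphingosine-1-phosphate receptor (r = 0.397, 1485 CPM), followed by Adgre5, Acvrl1 (a BMP receptor of endothelium), Sgms1 and Id3. For Sox17 it was Sh3gl1 (r = 0.38), then Entpd1, Crip2, Zfand2a and Itpr3. For Sox7 it was Tmed5 (r = 0.397), then Cyr61, Nr4a1, Fosb and Rsrp1, of which Nr4a1 and Fosb are immediate early genes. No gene was in the first 5 of more than one member.

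Arterial and venous marks among the endothelial-like wells had no part in choosing the 3 genes, so SoxF levels were tested against them. A well was marked when at least 2 genes of a list were at 50 CPM or more, which gave 56 arterial-marked wells (of 13 genes) and 32 venous-marked wells (of 11 genes), with 11 wells marked by both. The marks are not independent of SoxF: 4 arterial genes (Dll4, Efnb2, Hey1 and Unc5b) and the venous gene Vcam1 are reported SoxF targets or partners. Median genes per well were 2125 in arterial-marked and 2030 in unmarked wells, and 2292 and 2070 for venous marks. The tests did not adjust for this. Sox18 averaged 1270 CPM in arterial-marked wells and 826 in the other 51, with a count in 91.1% and 76.5% of them. Its mean log2(CPM + 1) was higher in arterial-marked wells in 7 of 8 mice, by 2.81 ± 3.78 (SD, n = 8; exact two-sided sign-flip permutation test, p = 0.0547, adjusted p = 0.328 over the 6 comparisons). The differences ran from -2.22 in mouse 7 to 10.5 in mouse 2. Sox17 averaged 675 CPM in arterial-marked and 455 CPM in unmarked wells, with a count in 67.9% and 68.6%, and was higher in 4 of 8 mice (1.26 ± 3.01, adjusted p = 0.527 by the same exact test). Sox7 averaged 359 and 338 CPM and was higher in 6 of 8 mice (1.33 ± 3.62, adjusted p = 0.527, exact).

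In venous-marked wells Sox17 averaged 441 CPM against 625 CPM in the other 75 wells, while its share of wells with a count was 75% against 65.3%. Its mean log2(CPM + 1) was higher in 6 of 8 mice, by 1.07 ± 1.85, so that the mean CPM and the mean log value differ in direction (adjusted p = 0.469, exact). Sox18 averaged 977 and 1093 CPM and Sox7 295 and 372 CPM in venous-marked and other wells, with differences of -0.53 ± 2.80 and -0.91 ± 3.16 (adjusted p = 0.594 and 0.534, exact). None of the 6 comparisons passed the threshold of 0.05, and 8 mice allow an unadjusted p as low as 0.00781. One arterial gene, Cxcl12, was at 50 CPM or more in 89.7% of the wells, so that the mark often rested on 1 other gene. With at least 3 arterial genes, Sox17 had a count in 84.6% of 26 marked wells and 63.0% of the other 81, and Sox18 was higher in 6 of 7 mice by 1.75 ± 1.52 (exact p = 0.0312, adjusted p = 0.188). Sox7 was then at -0.07. With at least 1 arterial gene, 6 wells stayed unmarked, and the differences were -0.14, -1.09 and -2.11 for Sox17, Sox18 and Sox7. When wells were placed in mice by sample titles, an alternative chosen after seeing the data, the Sox18 difference was 1.63 ± 1.14, with arterial-marked wells higher in 8 of 8 mice (exact p = 0.00781, adjusted p = 0.0469), while Sox18 in venous-marked wells turned to 0.27. The call for Sox18 thus depends on the assignment of wells to mice. Its direction stayed in 14 of 15 alternatives and turned with the 1-gene rule, which rests on 6 unmarked wells.

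**Figure D3:**
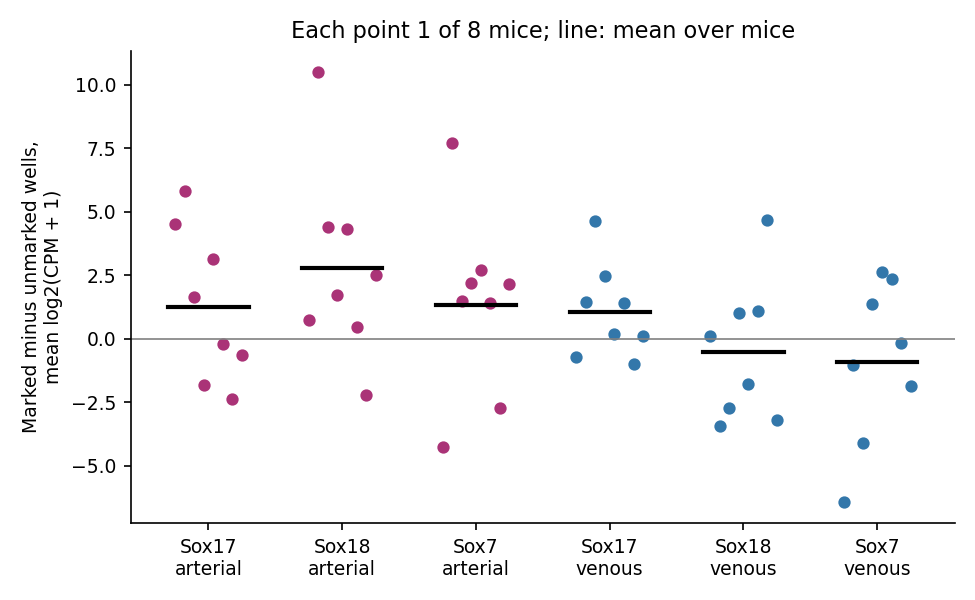
Difference in mean log2(CPM + 1) of each SoxF gene between arterial-marked (purple) or venous-marked (blue) and unmarked endothelial-like wells, 1 point for each of 8 mice and a line for their mean. Sox18 in arterial-marked wells lies above 0 in 7 mice, and every set of points spans 0; wells are assigned to mice by the sample descriptions.

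In the comparison of mimic with control mice, Sox17 had the largest difference of the 3 on the log2 scale over all kept wells, and Sox18 the largest in CPM. Over all kept wells of a mouse, Sox17 averaged 9.31, 34.2, 40.9 and 88.4 CPM in control mice 1, 3, 5 and 7, and 78.4, 110, 174 and 192 CPM in mimic mice 2, 4, 6 and 8. Mimic mice were higher with a mean of 139 ± 53.2 against 43.2 ± 33.1 CPM (SD, n = 4 each), but the groups overlapped in control mouse 7 and mimic mouse 2. Sox18 averaged 28.1, 62.3, 140 and 148 CPM in the control mice and 118, 272, 271 and 315 CPM in the mimic mice. The groups again overlapped, with means of 94.7 ± 59.0 and 244 ± 86.6 CPM. Sox7 averaged 38.5, 9.04, 50.6 and 79.5 CPM in the control mice and 35.5, 85.0, 68.3 and 91.4 CPM in the mimic mice, with means of 44.4 ± 29.2 and 70.1 ± 25 CPM. On the log2(CPM + 1) scale the differences were 1.94 for Sox17, 1.54 for Sox18 and 0.90 for Sox7, beside pooled SDs of 1.0, 0.91 and 1.0. Of 8823 genes tested, 1.18% had all mimic mice above all control mice in this comparison, and none of the 3 members did. Without the 16 wells of very many genes the differences were 2.02, 1.56 and 0.91.

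The share of endothelial-like wells differed between the mice. It was 12.1% ± 7.65 in control and 19.5% ± 8.31 in mimic mice (SD, n = 4 each), and lay at 4.49, 8.00, 14.1 and 22.0% in control mice 1, 3, 5 and 7 and at 8.70, 17.3, 26.7 and 25.3% in mimic mice 2, 4, 6 and 8. The SoxF difference in mean CPM was therefore divided into a part that follows the share and a part that follows the level within wells, both taken at group means and weighted by the mean of the groups, and a remainder that these means do not cover. For Sox17 the difference of 95.4 CPM divided into 38.3 from share and 65.8 from level, with -8.77 left over. For Sox18 149 CPM divided into 75 and 85.4, with -10.9 left over. For Sox7 25.7 CPM divided into 27.3 from share and -1.06 from level, with -0.61 left over. The level parts include control mouse 1, whose 4 endothelial-like wells averaged 680 CPM of Sox7, the highest of the control mice. The same wells averaged 165 CPM of Sox17 and 596 of Sox18, the lowest of the control mice. Without that mouse the Sox7 level in endothelial-like wells averaged 271 CPM in control and 373 in mimic mice.

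With the endothelial-like share set to 15.8%, its mean, in every mouse, Sox17 was at 27.8, 67.1, 45.7 and 64.2 CPM in control mice 1, 3, 5 and 7 and at 142, 101, 104 and 121 CPM in mimic mice 2, 4, 6 and 8. These values do not overlap, and the difference was 1.24 on the log2 scale. For Sox18 the control mice were at 95.5, 122, 157 and 108 CPM and the mimic mice at 214, 248, 163 and 199 CPM, also without overlap and with a difference of 0.77. Without control mouse 1, the lowest for both genes, the differences were 0.984 for Sox17 and 0.672 for Sox18, still without overlap. Sox7 overlapped throughout, at 115, 17.5, 56.5 and 57.6 CPM in control and 64.3, 77.7, 41.1 and 58.8 CPM in mimic mice, with means of 61.6 ± 40 and 60.5 ± 15.2 CPM (SD, n = 4 each). Its difference of 0.21 on the log2 scale became -0.28 without control mouse 3, 0.60 without control mouse 1 and 0.57 from pooled counts. Of all genes tested, 1.47% had every mimic mouse above every control mouse in this weighting, and since the 2 members that did were chosen on this contrast, nothing is read from their number.

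Within endothelial-like wells, mouse 1 had 4 such wells and stayed out of the group mean. Sox17 averaged 421, 280 and 397 CPM in control mice 3, 5 and 7 and 889, 630, 640 and 751 CPM in mimic mice 2, 4, 6 and 8, and the lowest mimic mouse was above the highest control mouse. Mean levels were 366 ± 75.3 (SD, n = 3) and 728 ± 121 CPM (SD, n = 4), a ratio of 1.99. Sox18 averaged 768, 983 and 662 CPM in the control and 1350, 1562, 998 and 1239 CPM in the mimic mice, a ratio of 1.6, and the gap between mice 5 and 6 was small. Sox7 averaged 108, 346 and 358 CPM in the control and 405, 486, 251 and 349 CPM in the mimic mice, which overlap. Mouse 1, left out here, had 165 CPM of Sox17, 596 of Sox18 and 680 of Sox7, the last resting on 1 well at 2720 CPM. Of 5799 genes tested in these wells, 3.48% had the 4 mimic mice above the 3 control mice, and 2.12% did with mouse 1 included.

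**Figure D4:**
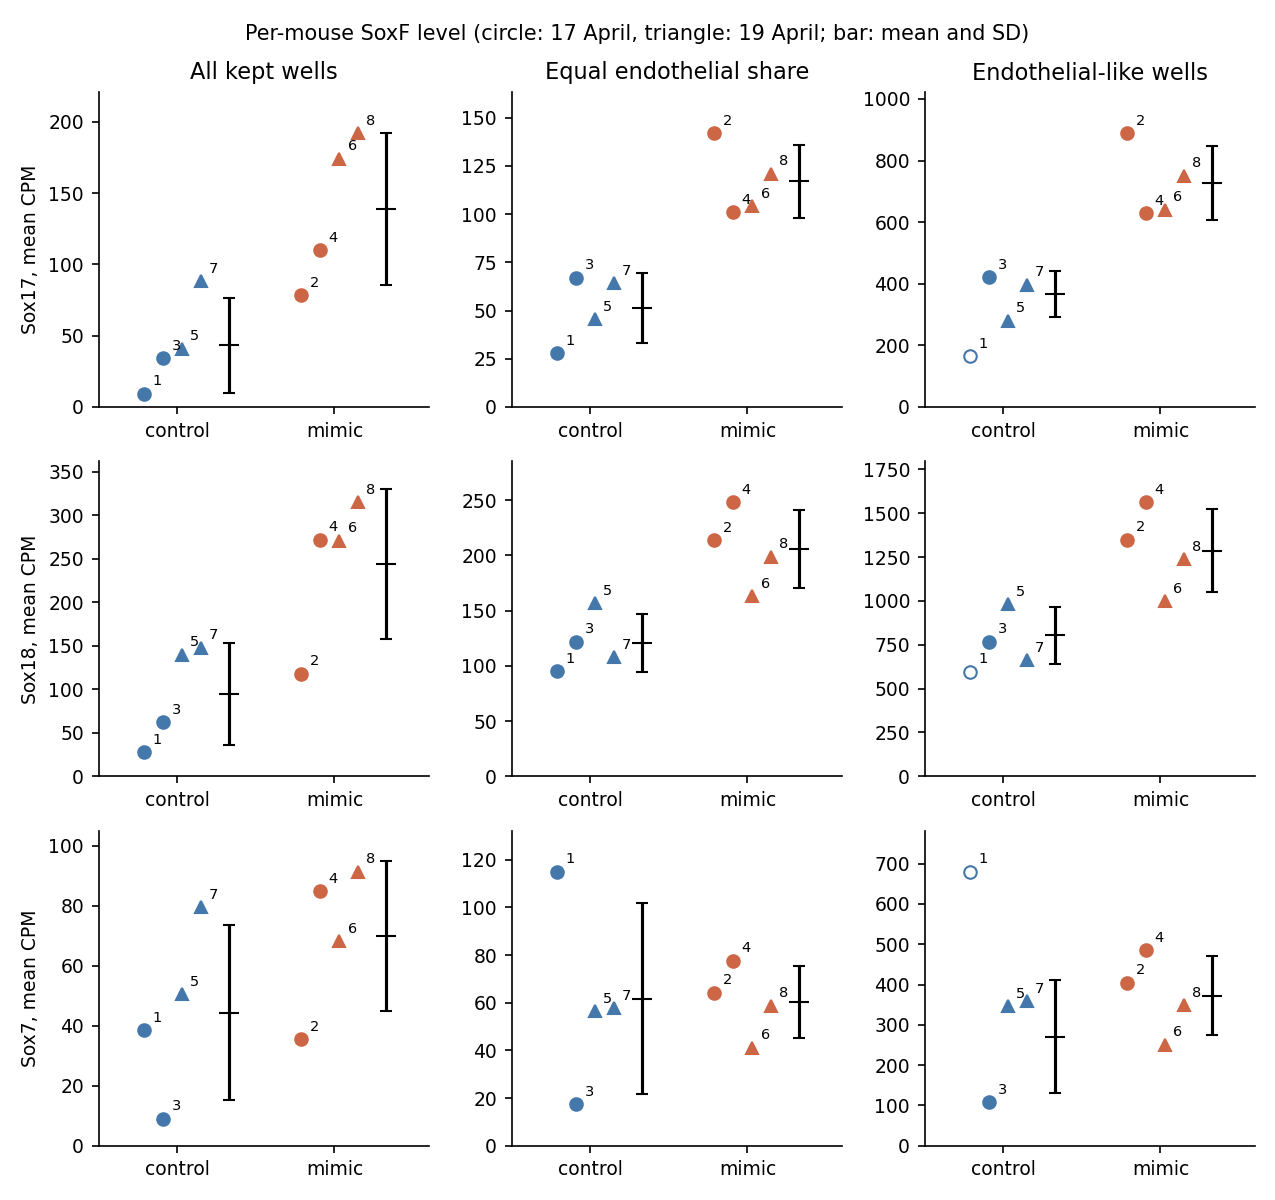
Mean CPM of Sox17, Sox18 and Sox7 (rows) in each mouse over all kept wells, at an equal endothelial-like share and in endothelial-like wells (columns); numbers are mouse numbers, and bars show the mean and SD per group. The open circle is control mouse 1, left out of the mean in the right column because it has 4 such wells. The Sox17 and Sox18 groups separate in the middle and right columns, and the Sox7 groups overlap in all columns; wells are assigned by the sample descriptions.

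The share of wells with a Sox17 count and the level of those wells were read apart. In control mice 3 of 6, 6 of 12 and 10 of 18 endothelial-like wells had a Sox17 count in mice 3, 5 and 7, with 2 of 4 in mouse 1, which is 50 to 55.6%. In mimic mice the shares were 50% in mouse 2 and 84.6, 78.3 and 82.6% in mice 4, 6 and 8. Over wells with a count Sox17 averaged 330, 842, 560 and 715 CPM in control mice 1, 3, 5 and 7 and 1779, 745, 818 and 909 CPM in mimic mice 2, 4, 6 and 8. The groups overlap, with means of 612 ± 220 and 1063 ± 482 CPM (SD, n = 4 each). Mimic mouse 2, whose share equalled that of 3 control mice, had 4 such wells, 1 of them at 4446 CPM, and without it the mimic mean was 824 ± 82.2 CPM (SD, n = 3). For Sox18 the shares were 66.7 to 100% in control and 82.6 to 95.7% in mimic mice, and the means over wells with a count 994 ± 311 and 1444 ± 280 CPM. For Sox7 the shares were 33.3 to 75% in control and 34.8 to 75% in mimic mice, and 55.0% of 40 control and 53.7% of 67 mimic wells when pooled. The summed level of the 12 endothelial markers lay between 45307 and 52833 CPM in control and between 47332 and 52128 CPM in mimic mice. Summed pericyte markers were at 0.857 to 667 CPM in control and 71.4 to 2087 in mimic mice, and haemoglobin genes at 0 to 6377 and 0 to 8498 CPM. Their part in the SoxF differences was not tested.

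Assigning the wells by sample titles turned the direction for Sox17 and Sox18. In endothelial-like wells Sox17 was then at 754 ± 111 CPM in control and 359 ± 50.8 CPM in mimic mice (SD, n = 4 each), with every mimic mouse below every control mouse, as for 1.66% of genes. Sox18 was at 1224 ± 213 CPM in control and 882 ± 226 CPM in mimic mice, with overlap. Over all kept wells Sox17 was at 129 ± 37.2 and 55.8 ± 12.2 CPM and Sox18 at 208 ± 57.8 and 133 ± 38.7 CPM in control and mimic mice. Sox7 stayed higher in mimic mice by titles, at 485 ± 226 against 231 ± 33.8 CPM in endothelial-like wells, with overlap. The direction of the Sox17 and Sox18 differences thus rests on the assignment by descriptions.

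Within the sort dates, the differences over all kept wells were 2.3 on 17 April and 1.58 on 19 April for Sox17, 2.07 and 1.02 for Sox18, and 1.49 and 0.31 for Sox7. On each date both mimic mice were above both control mice in Sox17, in Sox18 and in the endothelial-like share, while Sox7 overlapped. How many of all genes separate in this way by date was not counted. Sox17 and Sox18 were chosen on this contrast, so nothing is read from their separation. The Sox17 difference in endothelial-like wells was 0.83 on 17 April, with 1 control mouse, and 1.05 on 19 April. Sox18 differed by 0.92 and 0.46 on the 2 dates. For Sox7 the difference was 2.03 on 17 April and -0.25 on 19 April, where the control mice averaged 352 and the mimic mice 300 CPM. Each date holds at most 2 mice per group, and the difference between dates was not tested. At equal endothelial-like share the values were 1.45 and 1.04 for Sox17, 1.09 and 0.46 for Sox18, and 0.63 and -0.21 for Sox7.

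The date of the sort itself was not used to choose the genes and was tested over all genes on counts summed per mouse, with treatment as a covariate. In endothelial-like wells of 7 mice edgeR's quasi-likelihood test with Benjamini-Hochberg adjustment called 0 of 5799 genes (0%; 203 at an unadjusted p under 0.05), while DESeq2 called 98 (1.69%). For the 19 April sort over the 17 April sort the log2 fold change was 0.05 ± 0.30 for Sox17, -0.18 ± 0.25 for Sox18 and 0.01 ± 0.51 for Sox7 (SE, edgeR adjusted p = 0.999 for each). The median over all genes was 0.38. A difference by date was therefore not detected for any member, and the standard error is widest for Sox7.

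The same fit, with date as the covariate, was read for the treatment in other genes. In endothelial-like wells edgeR called 0 of 5799 genes for mimic over control (0%; 114 at an unadjusted p under 0.05) and DESeq2 33 (0.569%). Over all kept wells edgeR called 0 of 8823 (0%; 395 at an unadjusted p under 0.05) and DESeq2 12 (0.136%). The median log2 fold change of all genes in endothelial-like wells was 0.30, and 0.08 when date was left out of the fit, so that values near 0.30 are not above the general level. The SoxF fold changes in this fit were 1.16 ± 0.31 for Sox17, 0.63 ± 0.26 for Sox18 and 0.58 ± 0.52 for Sox7 (SE), given as a description.

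Genes reported as SoxF targets or partners in endothelium did not pass the test in either direction. Of 18, 16 were tested in endothelial-like wells, 12 had a fold change above 0 and 7 one above the median of all genes, and their median was 0.10. The 5 most abundant were Cldn5 at 12671 CPM, the VEGF receptor gene Flt1 at 3840, Robo4, a receptor of vessel stability, at 865, the angiopoietin receptor gene Tek at 709 and the VEGF receptor gene Kdr at 690. Cldn5 had a fold change of -0.15 ± 0.17 and Flt1 of 0.38 ± 0.26 (SE), and by sample titles these turned to 0.07 and -0.12. Over all kept wells 12 of 15 tested targets were above 0, with a median of 0.51 beside 0.00043 for all genes, and none passed. Several other lists moved alike over all kept wells, where the endothelial-like share also differs: 16 of 17 transcription factors were above 0 with a median of 0.61, 7 of 10 capillary genes with 0.51 and 12 of 15 Wnt genes with 0.40. All 3 tested venous genes were above 0, with a median of 0.48. The arterial list did not move alike, with 3 of 6 tested genes above 0 and a median of -0.07. Of the 18 target genes, 4 are also endothelial markers of the class naming and 4 are also in the arterial list.

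Genes of the Wnt pathway, which lies upstream of Sox17 in brain endothelium, showed a like picture. Of 20 genes 15 were tested, 9 were above 0 and 7 above the median of all genes, and none passed, with a median of 0.29. The most abundant were Ctnnb1, which encodes β-catenin, at 569 CPM and the feedback gene Nkd1 at 309, followed by the feedback inhibitor Apcdd1 at 303, Tnfrsf19 at 301 and the transcription factor gene Lef1 at 198. Ctnnb1 had a fold change of 0.08 ± 0.34 and Nkd1 of -0.20 ± 0.44 (SE), which turned to -0.16 and 0.22 by sample titles.

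Vessel segment lists were tested in the same way and none of their genes passed with the filter on low counts. Without that filter Cxcl12 passed (0.64 ± 0.15, SE, edgeR adjusted p = 0.0393), as 1 of 8 genes called of the 19279 then tested. Of the arterial list 9 of 13 were tested, 7 were above 0 and 6 above the median of all genes, with a median of 0.60. Its most abundant genes were the chemokine gene Cxcl12 at 6917 CPM, the Notch ligand gene Dll4 at 216, Gkn3 at 168, Hey1 at 158 and Sema3g at 86.7. Cxcl12 had a fold change of 0.61 ± 0.40 and Dll4 of 1.54 ± 0.81 (SE), and by sample titles they were at -0.29 and -0.30. Of the venous list 5 of 11 were tested, 2 were above 0 and 1 above the median of all genes, with a median of -0.34. It was led by the amino acid transporter gene Slc38a5 at 543 CPM and von Willebrand factor, Vwf, at 193 (fold changes -0.73 ± 0.45 and 1.46 ± 1.7, SE), then Ephb4 at 128, Vcam1 at 122 and Icam1 at 35.9. All 10 capillary genes were tested, 5 were above 0 and 5 above the median of all genes, with a median of 0.06. They were led by Car4 at 2887 CPM and Spock2 at 1999 (-0.64 ± 0.34 and 0.68 ± 0.22, SE), then by Mfsd2a, a lipid transporter of the blood-brain barrier, at 1449, Slc22a8 at 1332 and Slc16a1 at 1075. By sample titles Slc38a5 turned to 0.55, Car4 to 0.10 and Spock2 to -0.30.

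Of 25 other transcription factors of endothelium 24 were tested, 13 were above 0 and 10 above the median of all genes. None passed, and their median was 0.07. The most abundant were Id3 at 2226 CPM (0.77 ± 0.33, SE), Epas1, which encodes HIF-2α, at 1798 CPM (0.24 ± 0.32, SE), Id1 at 1547, Ets1 at 505 and the shear-stress regulated Klf2 at 268. By sample titles Id3 was at -0.07 and Epas1 at -0.28. Of the other Sox genes Sox13 alone passed the filter on low counts, with a fold change of 0.08 ± 0.70 (SE). The Sox17 fold change of 1.16 was above the median of each list, and the values for Sox18 and Sox7 were close to the arterial median. Single genes went higher than Sox17 in the target, Wnt, arterial, venous and transcription factor lists (up to 1.97, 2.55, 1.97, 1.46 and 2.27). In the capillary list the highest was 0.717. The SoxF genes were chosen on this contrast, so nothing is read from their place among the lists.

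**Figure D5:**
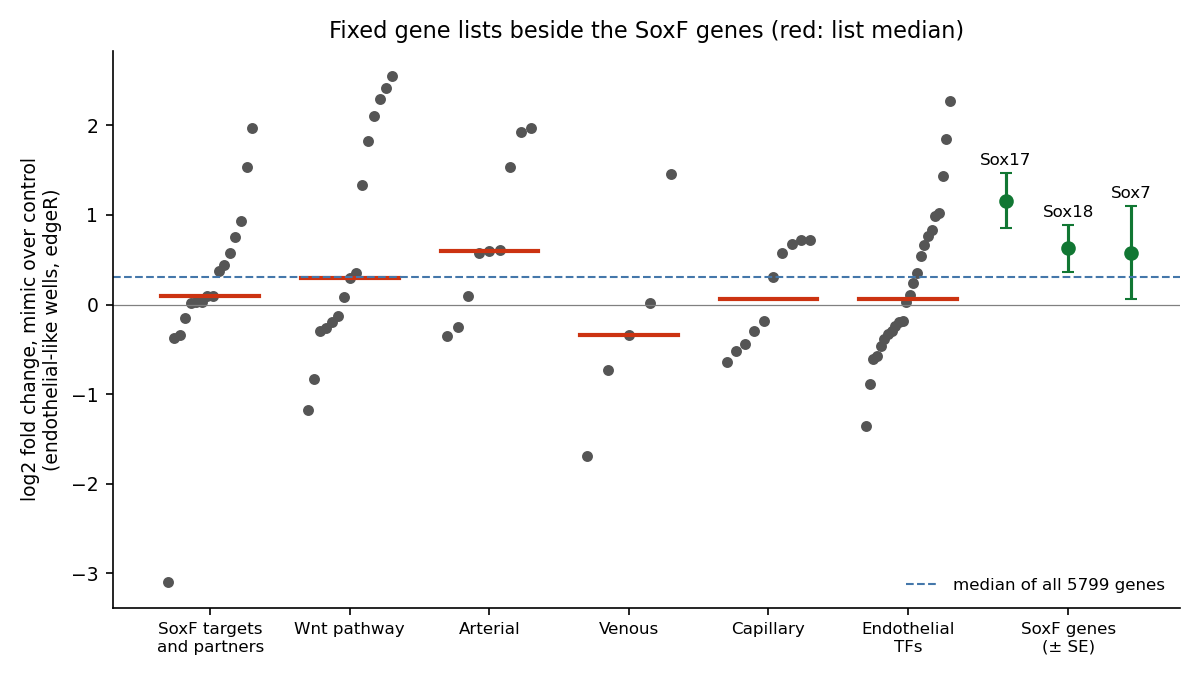
log2 fold change of mimic over control in endothelial-like wells (edgeR, counts summed per mouse, wells assigned by descriptions) for each tested gene of 6 fixed lists (grey points, red line at the list median), beside the 3 SoxF genes with their standard errors (green). The dashed line is the median of all 5799 genes, 0.30. No gene of the lists passed the test with the low-count filter.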

How the data were processed

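Smart-seq2 libraries of single sorted cells from the dentate gyrus of 4 control and 4 mimic mice were measured, 1 library per well. The deposited table holds whole read counts per gene and well, not normalized. Seurat 2.3.1, featureCounts 1.5.1, Subread, STAR and FastQC are named, with the mm10 build, in the submitters' processing notes; roles, order and settings are not given in the sources used here. The library method comes from the labels' protocols. Reads carry no molecular identifiers, so limits for a count of 0 cover counting error only.

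The members and gene lists were chosen with earlier results of these data known. Wells with at least 50000 counts and 1000 genes were kept. Counts per 10000, log scale, 2000 variable genes without the SoxF genes, 20 principal components, 15 neighbours and Leiden resolution 1 (scanpy 1.11.5, igraph 0.11.9) gave clusters, named by fixed markers. No doublet caller was run; wells of more than 6000 genes were examined apart. CPM was averaged per mouse, and differences are of log2(CPM + 1), which understates the change of low values; mice with under 5 endothelial-like wells stayed out of means in that class. Counts summed per mouse were tested with edgeR 4.0.16 (quasi-likelihood, TMM, a filter keeping genes seen in at least 10% of wells that also pass filterByExpr, Benjamini-Hochberg over all genes, threshold 0.05, R 4.3.3), with DESeq2 1.42.0 as an alternative. The edgeR step was tested on simulated counts as a check of the code, and its power in these data was not measured. Marked and unmarked wells were compared over mice by an exact sign-flip test. Named were the members, the 5 most abundant genes in endothelial-like wells of each list with any list gene that passed, and the 5 genes most like each member; fold changes are given for the 2 most abundant tested genes of a list, and other genes named were chosen after their values were seen. Promoter and protein sequences of the SoxF genes were not used here. Replicates are mice, and wells of a mouse share their animal.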

Additional observations from a re-analysis of the deposited data

Results flagged for a closer look

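The share of endothelial-like wells with a Sox17 count was 55.6% in control mouse 7, while the other 3 control mice were all at 50%, so that mouse 7 stood apart from the others by Dixon's criterion. With the other 3 tied, any departure meets this criterion, and here it is 10 of 18 wells where 9 would be 50%. It was 1 of 24 sets of 4 mice examined in this way for the 3 SoxF genes, and chance sets apart about 1 in 20. The shares rest on 4 to 18 wells per mouse.

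Sox18 had 278 counts in the 93 wells left out for low depth or few genes, 268 of them in a single well, and 2 of these wells had any Sox18 count. Sox17 and Sox7 had 1 count each in the left-out wells, where the endothelial gene Cldn5 had 15508 counts.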

How the results depend on the processing

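Assigning wells by sample titles turned the mimic minus control difference of Sox17 to -1.17 over all kept wells, -1.01 at equal endothelial-like share and -1.07 in endothelial-like wells, and that of Sox18 to -0.637, -0.473 and -0.491. It turned the date fold change of Sox17 to -0.192 and of Sox18 to 0.207. The treatment fold change turned to 0.0675 for Cldn5, -0.121 for Flt1, -0.16 for Ctnnb1, 0.224 for Nkd1, -0.29 for Cxcl12, -0.303 for Dll4, 0.553 for Slc38a5, 0.102 for Car4, -0.295 for Spock2, -0.0729 for Id3 and -0.278 for Epas1.

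Leaving out 1 mouse at a time gave 1.37 to 2.41 for Sox17, 1.06 to 1.86 for Sox18 and 0.291 to 1.29 for Sox7 over all kept wells. At equal share it gave 0.984 to 1.4, 0.672 to 0.908 and -0.283 (without control mouse 3) to 0.599, and in endothelial-like wells 0.816 to 1.11, 0.547 to 0.832 and 0.0405 to 0.9. The same ranges were 0.606 to 1.78, 1.71 to 3.52 and 0.422 to 2.14 for arterial marks and 0.555 to 1.36, -1.28 to -0.117 and -1.41 to -0.12 for venous marks. For the date they were -0.101 to 0.137 for Sox17, -0.345 to -0.0384 for Sox18 and -0.645 to 0.425 for Sox7. For the treatment, changes of sign came in Flt1 (-0.0123 to 0.576), Ctnnb1 (-0.194 to 0.243), Nkd1 (-0.585 to 0.132), Slc38a5 (-1.11 to 0.0847) and Sox13 (-0.554 to 0.573). Genes called by edgeR stayed at 0 in each of these runs.

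The SoxF values by vessel mark depended on the rule for a mark. With 1 marker, which left 6 wells without an arterial mark, the arterial differences were -0.142, -1.09 and -2.11 for Sox17, Sox18 and Sox7. The venous ones were then 0.638 for Sox18 and 0.0799 for Sox7. With 3 markers Sox7 was at -0.0656 (arterial) and 1.03 (venous) and Sox18 at 0.405 (venous). At 200 CPM arterial Sox7 was -0.118, and without Cxcl12, an alternative chosen after seeing the data, -0.0656. By sample titles, also chosen after seeing the data, Sox18 was at 1.63 in arterial-marked wells (adjusted p = 0.0469, exact sign-flip permutation test) and 0.273 in venous-marked wells. Sox17 by date was -0.0321 with DESeq2, -0.032 with its size factors and -0.164 without the covariate, and Sox7 -0.0579, -0.0574 and -0.226.

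DESeq2 called 98 genes for date, 33 for treatment in endothelial-like wells and 12 over all kept wells, where edgeR with the low-count filter called 0. Without the low-count filter edgeR called 17 of 19279, 8 of 19279 and 84 of 31906 genes in these comparisons. For each of these changes the cause was not tested. Without that filter Cxcl12 was called in endothelial-like wells. Mean levels in endothelial-like wells moved by less than 1 SD with thinning, marker-score classes and Leiden resolution 0.5. No paired analysis was possible because control and mimic mice share no replicate number. Mouse 1 has 4 endothelial-like wells, which limits its values.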
